A study of Mus musculus with 6 samples.

Results

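The 8 genes described here encode parts of the neuronal cytoskeleton, a growth factor receptor, neuron-enriched enzymes and synaptic proteins. They are Stmn2, Gap43, Tubb3, Gfra2, Eno2, Camk2b, Gria2 and Snap25. They were chosen by name as a group of neuronal genes, and make up 8 of 328 measured genes and 11 of 370 amplicons. Transcripts were counted as unique molecular identifiers (UMIs), each standing for 1 captured molecule, in single mouse hypothalamic cells by BD Rhapsody with custom primer panels. All mice were C57/Bl6 with the KLB-CRE and Ai14 alleles, so no group lacked either allele. Klb encodes β-klotho, through which the hormone FGF21 signals, and tdTomato is switched on for good once Cre is made from Klb, so it records past as well as present use of the gene. Every capture pooled 3 hypothalami, which had been dissociated for 30 min in pronase (2 mg/ml), and cells were sorted for tdTomato and viability. No mouse age was used here. Each of the 3 captures was amplified with 2 primer panels, and the capture is the replicate.

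A larger set of 265 genes was counted in the library labelled panel 1 of replicate 1 (950 cells), here called the panel 1 library, and in 3 libraries labelled panel 2 (44, 43 and 87 cells), here called captures 1, 2 and 3 after their replicates. It holds 7 of the 8 genes. The smaller set of 75 genes holds Snap25 and was counted in 25 other cells of replicate 2 and 104 of replicate 3. By its label the panel 1 library came from the same pool of mice as capture 1, but it held the larger set alone, and whether the labels of replicate 1 are as sequenced could not be told from the files. By label, the smaller-set cells of replicate 2 are from panel 1 and those of replicate 3 from panel 2. A cell had at least 20 UMIs and 5 genes. Depth differed widely: the median cell held 51 UMIs in the panel 1 library and 115.5, 1352 and 1033 UMIs in captures 1, 2 and 3. In the smaller set the medians were 1044 and 705 UMIs. The reporter was in 29.6% of cells of the panel 1 library and in 0%, 95.3% and 98.9% of captures 1, 2 and 3, and Klb itself was at 0 in all 4 libraries. Capture 1 thus held no reporter UMI although sorted for tdTomato, and results that rest on it are named as such. Left out of all 4 libraries were 21 barcodes with identical counts in a table of replicate 2 and one of replicate 3. They held Stmn2, Gap43, Gria2 and, with columns moved by 1, Tubb3, and capture 2 is given with and without them where this matters.

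As background, a neuron extends its axon by assembling and remodelling microtubules under a growth cone. Stmn2 encodes stathmin-2, which destabilises microtubules in growing axons, Gap43 encodes a membrane protein of the growth cone, and Tubb3 encodes the neuronal class III β-tubulin. Gfra2 encodes the membrane-anchored receptor for neurturin, which signals with the kinase Ret. Eno2 encodes the neuronal form of the glycolytic enzyme enolase and Camk2b the β subunit of the calcium/calmodulin-dependent kinase II. Gria2 encodes the AMPA receptor subunit that limits calcium entry, and Snap25 encodes a SNARE protein of synaptic vesicle fusion. In the hypothalamus such genes are used to tell neurons from glia and vessel cells, although Gap43 and Gria2 are also known from glial precursors.

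Many neuronal genes are kept silent outside neurons by the repressor REST, which binds the RE1 element, and Stmn2 and Gria2 are known examples. Promoters of 4 of the 8 genes (Gria2, Eno2, Tubb3 and Camk2b) were found in RefSeq of build GRCm38.p6. The central letters of the element, AGCACC and GGACAG with 2 bases of any kind between them, were searched on both strands in the 250 bases before each gene start. They were in 1 of the 4, and in 15 of 32851 promoters of the same length (0.0457%). The match is shown because it was the only one among the 4. It lies on the opposite strand and begins 170 bases before the start of Gria2, in chr3:80802836-80803085 on the minus strand, with the matched letters in capitals.
Gria2: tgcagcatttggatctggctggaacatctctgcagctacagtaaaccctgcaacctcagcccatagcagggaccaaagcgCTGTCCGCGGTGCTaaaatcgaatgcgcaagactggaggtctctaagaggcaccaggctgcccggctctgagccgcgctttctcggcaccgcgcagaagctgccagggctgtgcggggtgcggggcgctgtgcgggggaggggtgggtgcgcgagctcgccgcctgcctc
A match of letters is a description of the sequence, and binding was not measured in these cells.

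The genes fell into different sets in different libraries. The panel 1 library held UMIs of all 7 genes of the larger set, each in a minority of cells. Capture 1 held 3 of them (Stmn2, Gap43 and Gfra2), capture 2 held 2 (Eno2 and Camk2b), and capture 3 held 4 (Gap43, Gfra2, Camk2b and Gria2). Over all 265 genes of the set the numbers with a UMI were 157, 50, 93 and 119 in the same order. None of the 7 was counted in all 4 libraries, beside 33 of the 265. For 6 of the 7 genes (85.7%), over 50% of the cells of one panel 2 library held a UMI while another panel 2 library held none. The same was true of 72 of all 265 genes of the set (27.2%), or 41.6% of the 173 genes with any UMI. The other gene, Tubb3, was at 0 in all cells kept of panel 2. With the 21 barcodes kept as deposited, capture 2 also held Stmn2 (26.6%), Gap43 (20.3%) and Gria2 (31.3%). Gap43 was then in all 4 libraries, and no longer among the 6 genes. The 6 also rest on full depth. Thinned to 35 UMIs, no share of Eno2, Camk2b or Gria2 passed 50%, the highest being 3.48%, 4.16% and 2.85%. Stmn2, Gap43 and Gfra2 kept 58.3%, 54.5% and 73.8% in capture 1.

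**Figure D1:**
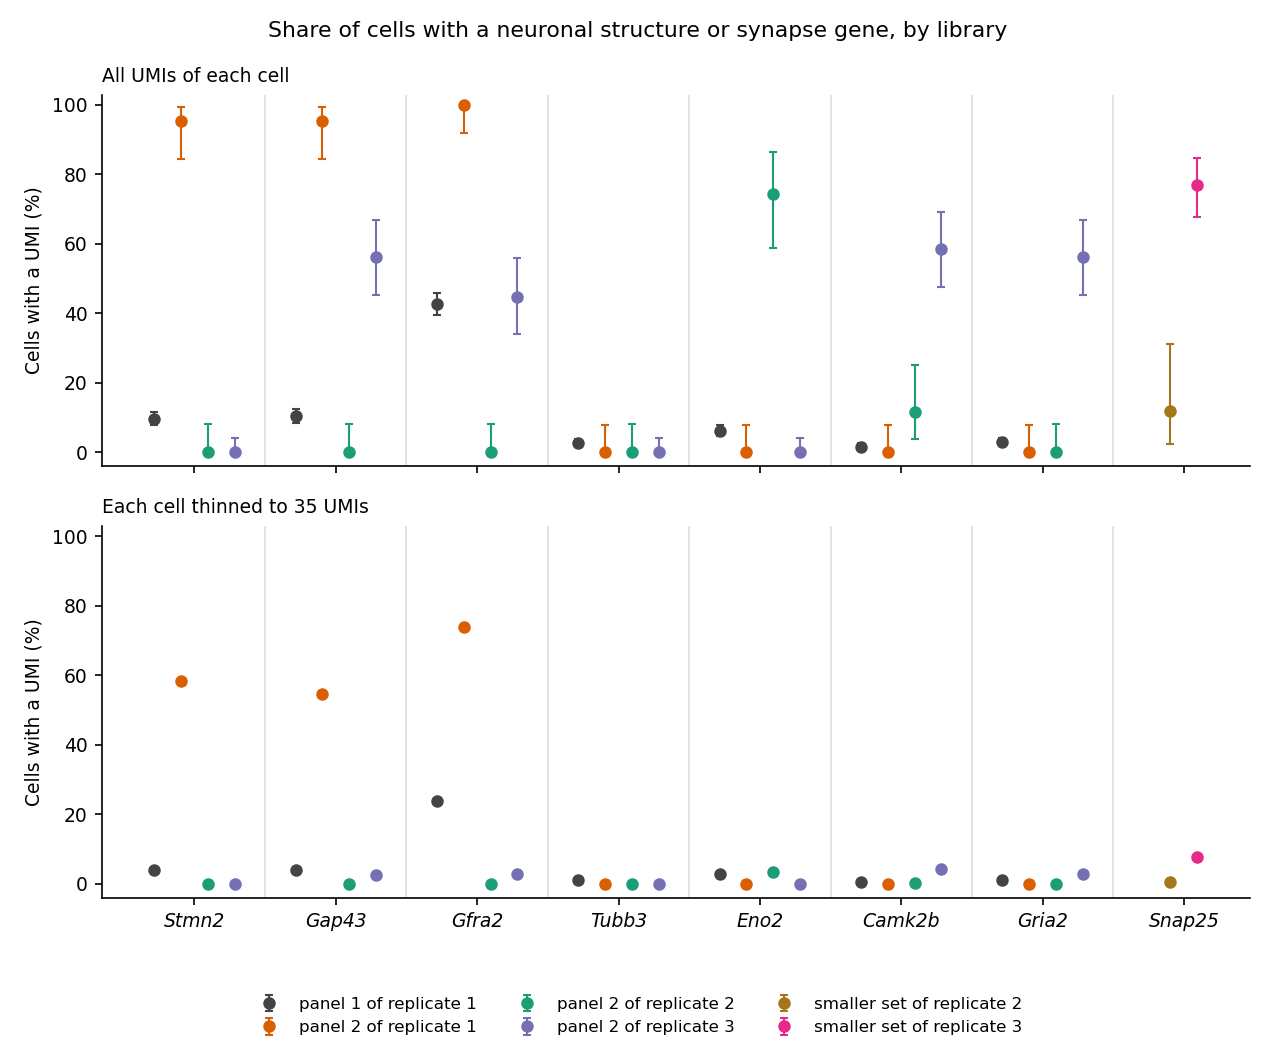
Share of cells with at least 1 UMI of each gene, by library. Upper plot: all UMIs, with exact 95% intervals for counting error. Lower plot: the share expected when each cell is thinned to 35 UMIs. Stmn2, Gap43 and Gfra2 stood above 95% in capture 1 and above 54% there after thinning, while the thinned shares of captures 2 and 3 were all below 5%.

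Among the cells kept, Stmn2 (NM_025285.2) was counted in both libraries of replicate 1 and in no other. It was in 91 of 950 cells of the panel 1 library (9.58%, exact Clopper-Pearson 95% interval 7.78 to 11.6) and in 42 of 44 cells of capture 1 (95.5%, 84.5 to 99.4). No UMI was counted in the 43 cells of capture 2 or the 87 of capture 3, although cells there were deeper. A limit of 3 counts allows shares of up to 6.98% and 3.45% there, and the exact intervals reach 8.22% and 4.15%. Limits written below as up to a share are likewise of 3 counts. With the 21 barcodes kept in capture 2, its share was 26.6% as deposited and 28.1% with columns moved by 1. Intervals and limits cover counting error only and bound cells with a UMI, not cells that express the gene. The mean share over panel 2 was 31.8% ± 55.1 (SD, n = 3), an SD larger than the mean. Because deeper cells show more genes, shares were also computed for cells thinned to 35 UMIs, which left out 306 cells of the panel 1 library and 1 of capture 1. Thinned, Stmn2 was in 3.84% of cells of the panel 1 library and 58.3% of capture 1, and the order of these libraries was the same as at full depth.

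Stmn2 had 114 UMIs in the panel 1 library, a level of 1.08 UMIs per 1000, and 178 UMIs in capture 1, a level of 15.6 per 1000. Of the 91 cells with Stmn2 in the panel 1 library, 77 held a single UMI. The gene was read by 2 amplicons. In the panel 1 library the amplicon labelled PolyA_1 gave 61 UMIs in 56 cells and the one labelled Reference_end gave 53 UMIs in 43 cells, with both in 8 cells. In capture 1 PolyA_1 gave 0 UMIs and Reference_end gave all 178. These 2 libraries thus differed in which amplicon was read as well as in level.

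Gap43 (NM_008083.2) was counted in both libraries of replicate 1 and in capture 3. It was in 99 of 950 cells of the panel 1 library (10.4%, 8.55 to 12.5). Capture 1 had it in 42 of 44 cells (95.5%), capture 2 in 0 of 43 (up to 6.98%) and capture 3 in 49 of 87 (56.3%, 45.3 to 66.9). Capture 2 stood at 20.3% with the 21 barcodes kept. Over the 3 captures without them the share averaged 50.6% ± 48.0 (SD, n = 3). Its level was 1.10 UMIs per 1000 in the panel 1 library and 18.6, 0 and 0.778 per 1000 in captures 1, 2 and 3. In share of cells, capture 3 stood above the panel 1 library, and in level below it. Thinned to 35 UMIs the shares were 4.01% in the panel 1 library and 54.5%, 0% and 2.46% in captures 1, 2 and 3, so the order followed the level.

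Tubb3 (NM_023279.2), often used as a marker of neurons, was counted in the panel 1 library and, among the cells kept, in no other. It was in 25 of 950 cells of the panel 1 library (2.63%, 1.71 to 3.86), with 28 UMIs and at most 2 in a cell. It was at 0 in all 174 cells of panel 2, which allows up to 1.72% over the 3 captures and 6.82%, 6.98% and 3.45% in each by itself. The limit over the 3 captures, and the fold below, pool them as 1 sample and do not cover the spread between captures. Per 1000 UMIs the level of 0.265 in the panel 1 library was at least 17.0-fold higher than the limit of 3 counts over all UMIs of panel 2 cells kept. This turned with the 21 barcodes kept and their columns moved by 1. Tubb3 was then in 21.9% of cells of capture 2 at 1.16 per 1000. A single barcode held 93 of the 115 Tubb3 UMIs of the 21, and 22 were left without it. With the 21 as deposited, Tubb3 was at 0 in capture 2. In capture 1 alone the limit was 0.263 per 1000, so a difference from the panel 1 library was not detectable at the depth of that library. Thinned, Tubb3 was in 1.10% of cells of the panel 1 library.

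Gfra2 (NM_008115.3) was in more cells of the panel 1 library than any other of the 7 genes, although amplicons of different genes need not be read equally well. It was in 406 of 950 cells there (42.7%, 39.6 to 46.0). All 44 cells of capture 1 held it (100%, 92.0 to 100), against 0 of 43 in capture 2 (up to 6.98%) and 39 of 87 in capture 3 (44.8%, 34.1 to 55.9). The intervals of the panel 1 library and of capture 3 overlapped at full depth. The level was 7.04 UMIs per 1000 in the panel 1 library and 40.3, 0 and 0.827 per 1000 in captures 1, 2 and 3. Thinned, the shares were 23.8% in the panel 1 library and 73.8%, 0% and 2.96% in captures 1, 2 and 3, and the panel 1 library stood above capture 3. In capture 1, 187 of the 460 Gfra2 UMIs (40.7%) came from 1 cell. The mean share over panel 2 was 48.3% ± 50.1 (SD, n = 3).

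**Figure D2:**
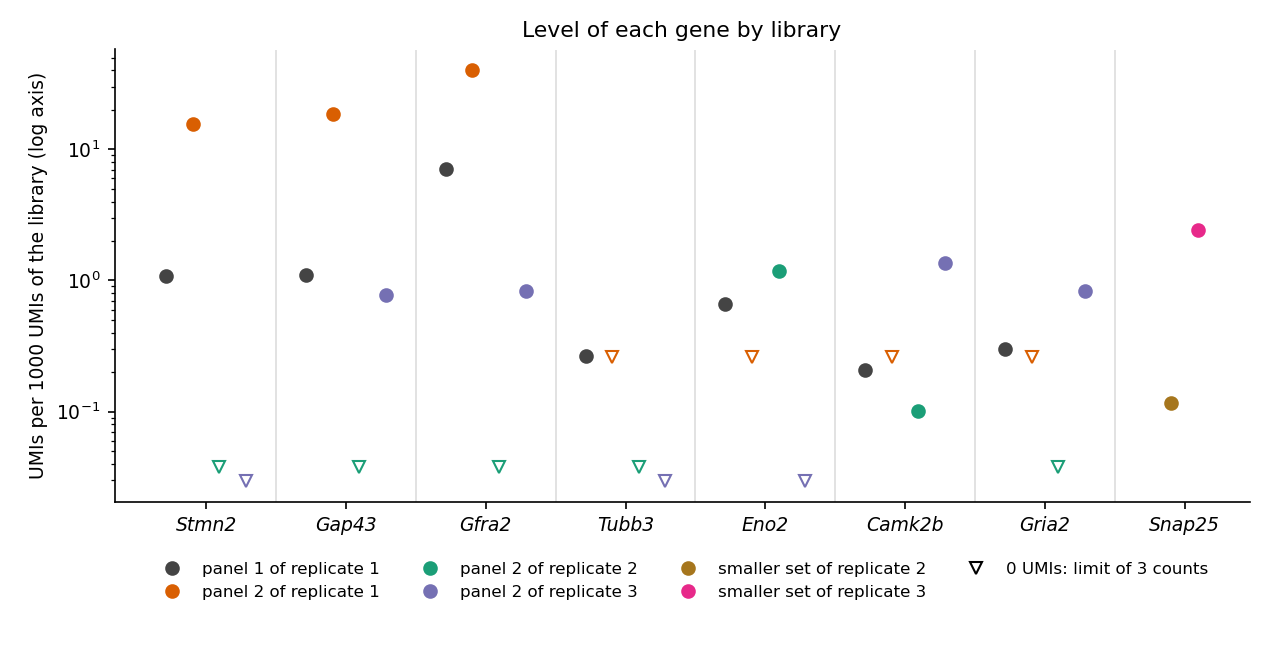
Level of each gene as UMIs per 1000 UMIs of the library, on a log axis. Filled circles are measured levels, and open triangles mark libraries with 0 UMIs at the limit that 3 counts would give. Stmn2, Gap43 and Gfra2 were at 15.6, 18.6 and 40.3 per 1000 in capture 1, above every other library.

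The 2 enzyme genes met in capture 2, where all 5 cells with Camk2b also held Eno2, and Camk2b alone was counted in capture 3. The cells of capture 2 with Camk2b had a median of 3231 UMIs, against 1281 in those without it. The part of depth in this overlap was not tested. Eno2 (NM_013509.3) was in 58 of 950 cells of the panel 1 library (6.11%, 4.67 to 7.82). Captures 1 and 3 held none (up to 6.82% and 3.45%), and capture 2 had it in 32 of 43 cells (74.4%, 58.8 to 86.5). Its level was 0.662 UMIs per 1000 in the panel 1 library and 1.18 per 1000 in capture 2. Thinned to 35 UMIs the shares came to 2.83% in the panel 1 library and 3.48% in capture 2, a gap of less than 1 point between libraries that stood far apart at full depth. Nearly all UMIs came from the amplicon labelled Reference_end, with 68 of 70 in the panel 1 library and 90 of 94 in capture 2. The deepest cell of capture 2, with 11434 UMIs, held 23 of its 94 Eno2 UMIs.

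Camk2b (NM_007595.5) was in 15 of 950 cells of the panel 1 library (1.58%, 0.886 to 2.59). Capture 1 had it in 0 of 44 cells (up to 6.82%), capture 2 in 5 of 43 (11.6%, 3.89 to 25.1) and capture 3 in 51 of 87 (58.6%, 47.6 to 69.1). Its level was 0.208 UMIs per 1000 in the panel 1 library and 0, 0.101 and 1.37 per 1000 in captures 1, 2 and 3. At full depth the interval of capture 3 lay above those of the panel 1 library and of capture 2. These intervals cover counting error only, not the spread between captures. Thinned, the shares were 0.671% in the panel 1 library and 0%, 0.207% and 4.16% in captures 1, 2 and 3. A single cell held 30 of the 139 Camk2b UMIs of capture 3.

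Gria2 (NM_013540.2) was counted, among the cells kept, in the panel 1 library and capture 3. It was in 28 of 950 cells of the panel 1 library (2.95%, 1.97 to 4.23). Captures 1 and 2 held none (up to 6.82% and 6.98%), and capture 3 had it in 49 of 87 cells (56.3%, 45.3 to 66.9). The level was 0.303 UMIs per 1000 in the panel 1 library and 0.827 per 1000 in capture 3. With the 21 barcodes kept, capture 2 had Gria2 in 31.3% of cells, at 4.10 per 1000 as deposited and 4.26 with columns moved by 1. A single barcode held 371 of the 424 Gria2 UMIs of the 21, and 53 were left without it. Thinned, the shares were 1.18% in the panel 1 library and 2.85% in capture 3. All its UMIs came from 1 of its 2 amplicons, and the other was at 0 in all 4 libraries.

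Snap25 (NM_011428.3), the synaptic gene of the smaller set, had different shares in the 2 replicates that measured it, whose libraries also carry different panel labels, so replicate and label cannot be told apart here. Replicate 2 had it in 3 of 25 cells (12.0%, 2.55 to 31.2) and replicate 3 in 80 of 104 (76.9%, 67.6 to 84.6). These intervals did not overlap, but they cover counting error only, not the spread between captures. The mean was 44.5% ± 45.9 (SD, n = 2). Replicate 2 held 3 Snap25 UMIs, 1 in each cell, for a level of 0.116 per 1000, and replicate 3 held 185 UMIs for 2.41 per 1000. Median depth was 1044 UMIs in replicate 2 and 705 in replicate 3, the reverse order. In both most UMIs were of the complement gene C1qa of microglia, at 85.0% of UMIs in replicate 2 and 92.7% in replicate 3, so the Snap25 of replicate 3 stood in barcodes that carried mainly C1qa. Thinned to 35 UMIs, the Snap25 share was 0.414% in replicate 2 and 7.80% in replicate 3.

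In the panel 1 library the share of cells followed depth while the level did not follow it in the same way. From cells of 20 to 34 UMIs to cells of 200 or more, Stmn2 was in 2.61%, 1.94%, 10.6%, 10.8% and 32.8% of cells over 5 bins of depth. Its level in these bins was 1.0, 0.465, 2.11, 0.95 and 0.936 UMIs per 1000. Gfra2 was in 19.3% of the shallowest cells and 85.6% of the deepest, at levels of 7.75 and 5.97 per 1000. Among the 605 barcodes below the cell threshold, with a median of 11 UMIs, the levels were 1.03 per 1000 for Stmn2, 8.13 for Gfra2 and 1.03 for Eno2. In the 950 cells they were 1.08, 7.04 and 0.662 per 1000. Gap43 was lower below the threshold, at 0.443 per 1000 against 1.10 in the cells, and Camk2b and Gria2 were at 0 below it. The counts below the threshold were 7 UMIs of Stmn2, 55 of Gfra2, 7 of Eno2, 3 of Gap43 and 2 of Tubb3. No barcode was assigned to a cell type that lacks these genes, so a share of cells due to free RNA was not measured.

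**Figure D3:**
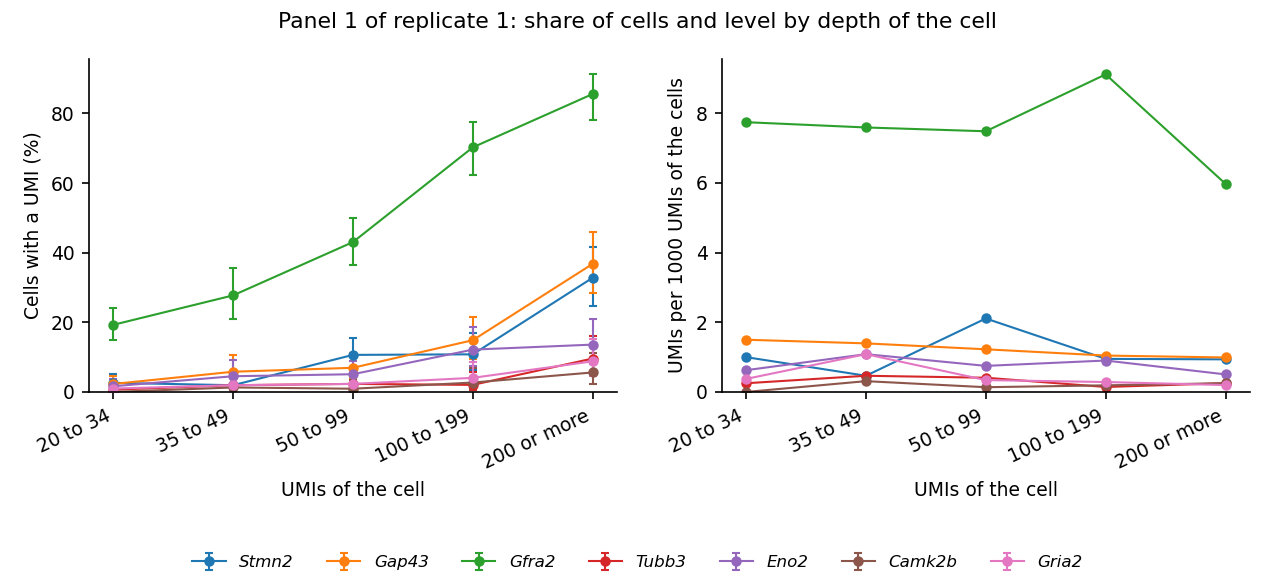
The panel 1 library by depth of the cell (5 bins, 306, 155, 216, 148 and 125 cells). Left: share of cells with each gene, with exact 95% intervals. Right: level per 1000 UMIs of the cells in the bin. Shares were highest in the deepest bin for all 7 genes, while the Gfra2 level lay between 5.97 and 9.12 per 1000.

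Cells could hold several of the 7 genes at once. The panel 1 library had 0.760 ± 0.896 genes per cell (SD over cells), and captures 1, 2 and 3 had 2.91 ± 0.291, 0.860 ± 0.601 and 2.16 ± 1.27. At least 1 gene was in 52.2% of cells of the panel 1 library (49.0 to 55.4), and leaving Gfra2 out brought this to 25.7%. The same share was 100%, 74.4% and 88.5% in captures 1, 2 and 3. In capture 1, 40 of 44 cells held the same 3 genes (Stmn2, Gap43 and Gfra2) and the other 4 held 2 of them. Thinned to 35 UMIs the means were 0.374 in the panel 1 library and 1.87, 0.0369 and 0.124 in panel 2. Cells of the panel 1 library with none of the genes had a median of 34 UMIs, and the 2 cells with 5 of them had 1715.5.

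**Figure D4:**
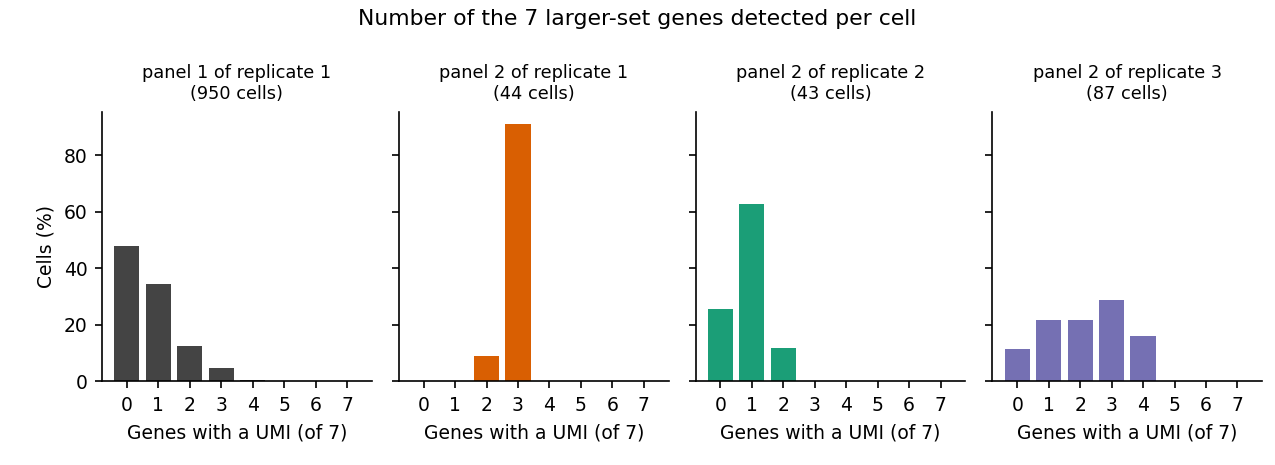
Share of cells with 0 to 7 of the larger-set genes, by library. In the panel 1 library, 454 of 950 cells held none, whereas 40 of 44 cells of capture 1 held 3. In capture 3 the cells were spread over 0 to 4 genes.

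Pairs of the genes met in cells of the panel 1 library, and cells with a gene were deeper than cells without it. Gap43 was in 26.4% of cells with Stmn2 and 8.73% of cells without it, but the cells with Stmn2 had a median of 167 UMIs against 47. Per 1000 UMIs, Gap43 stood at 1.07 in cells with Stmn2 and 1.11 in cells without. Across the 950 cells, Pearson r between genes, on residuals from the count that the depth of the cell predicts, ran from -0.0217 to 0.0673 over 21 pairs. In capture 1, r over 44 cells was 0.54 between Stmn2 and Gap43 and -0.30 and -0.29 between Gfra2 and each of them. In capture 3 it ran from -0.0650 to 0.218 over 6 pairs and 87 cells. These coefficients describe cells that share a library and its depth, and none is a test.

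The spread of UMIs over cells differed between the genes and often rested on single cells. The measure used is the mean squared deviation from the count that depth predicts, divided by that count, which is 1 for counting alone. Eno2 in capture 2 was at 1.24, where the median over 83 genes was 13.7 and 7 genes were lower. Gap43 in capture 3 was at 0.866, against a median of 3.79 over 109 genes. Snap25 in replicate 3 was at 1.06, beside a median of 1.08 over 20 genes. Gfra2 and Camk2b in capture 3 were at 9.55 and 8.39, but without the 1 cell that held the most UMIs of each they were at 1.58 and 1.3. These were a cell with 17 Gfra2 UMIs among 470 and another with 30 Camk2b UMIs among 958. In capture 1 Stmn2, Gap43 and Gfra2 were at 1.55, 2.92 and 7.59, beside a median of 2.78 over 38 genes, and at 1.62, 1.76 and 2.04 without their top cells. The median over 142 genes of the panel 1 library was 1.82, which Stmn2, Gap43, Gfra2 and Gria2 exceeded. Gap43 and Gfra2 were at 1.96 and 1.91 there, and at 1.82 and 1.54 without their top cells. Stmn2 and Gria2 were at 2.15 and 3.37, and at 1.08 and 1.22 without theirs. In the 2 top cells Stmn2 made up 8 of 54 UMIs, next to 19 of the astrocyte gene Gfap, and Gria2 made up 5 of 37, next to 3 of the calcium-binding gene Calb2.

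**Figure D5:**
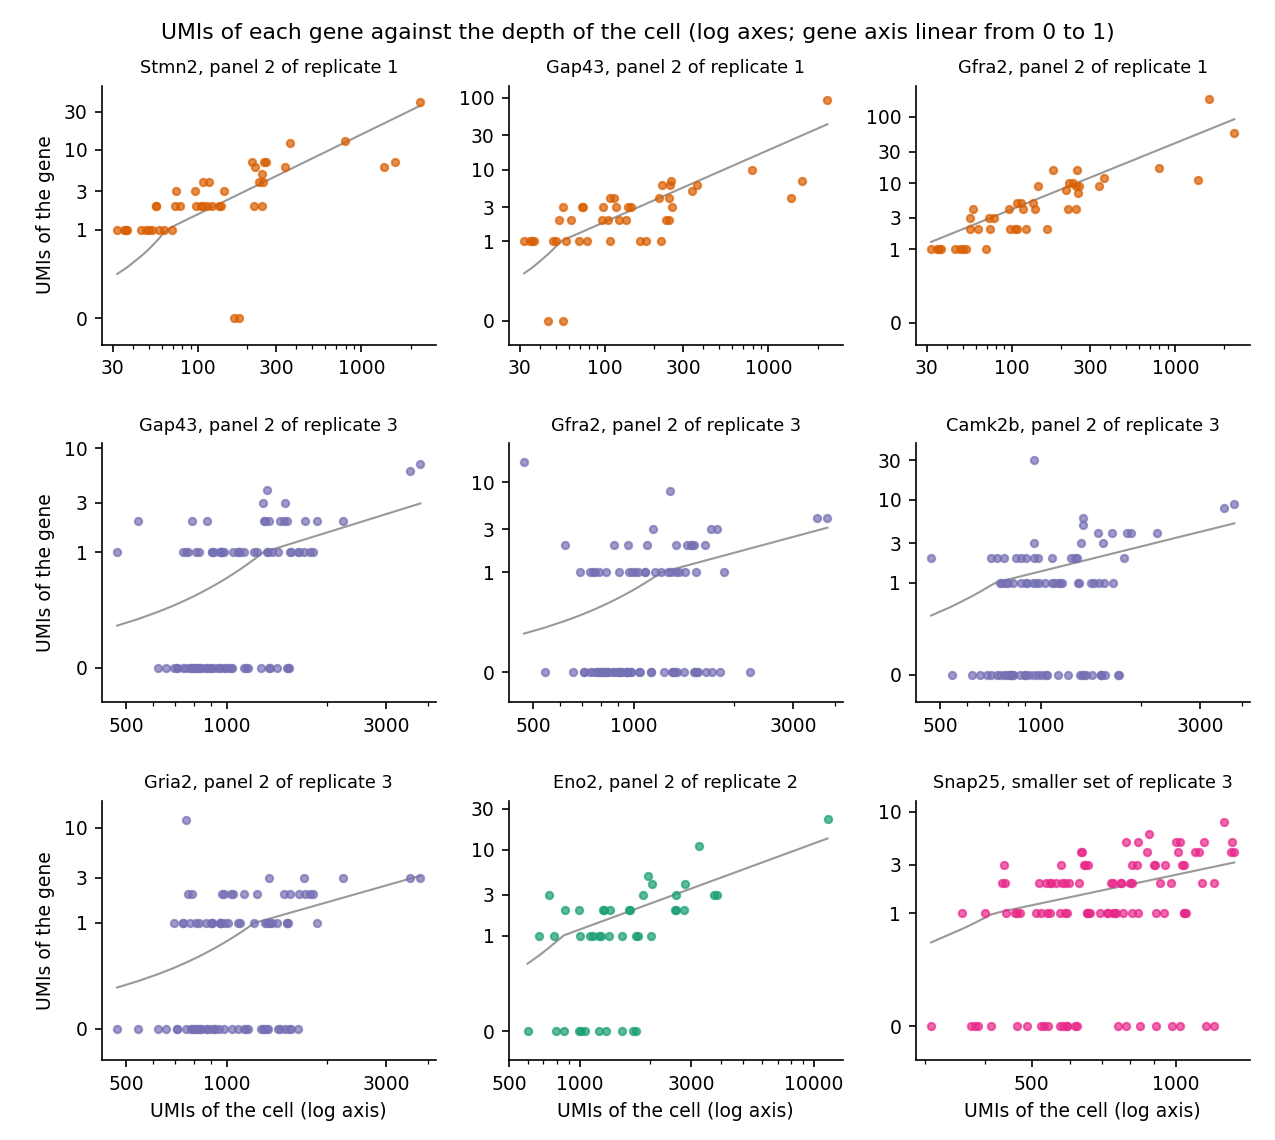
UMIs of a gene in each cell against the UMIs of the cell, both on log axes with the gene axis linear from 0 to 1. Each point is a cell, and the grey line is the count that the level in the library predicts. Single cells lie far above the line, such as 17 Gfra2 UMIs in a cell of 470 and 30 Camk2b UMIs in a cell of 958.

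The genes most like each member over cells differed between libraries, and several likenesses rested on 1 cell. In the panel 1 library (950 cells) the nearest were Gfap for Stmn2 (r = 0.44), Cspg5 for Gap43 (0.17), Npy1r for Gfra2 (0.32) and Snx30 for Tubb3 (0.10). For the others they were Slc17a8 for Eno2 (0.28), Bhlhe41 for Camk2b (0.29) and Calb2 for Gria2 (0.62). Without the cell with the most UMIs of the member, r was 0.02 for Stmn2 with Gfap, -0.0037 for Gria2 with Calb2 and -0.02 for Camk2b with Bhlhe41. It was 0.10 for Gfra2 with Npy1r and 0.08 for Eno2 with Slc17a8, and 0.16 for Gap43 with Cspg5. In capture 1 (44 cells) the nearest were Bhlhe41 for Stmn2 (0.72, and 0.74 without its top cell), Camk2n1 for Gap43 (0.88, and 0.67) and Rarres2 for Gfra2 (0.97, and 0.80). In capture 2 Rarres2 was nearest to Eno2 (0.62, and 0.56 over 42 cells). In capture 3 (87 cells) they were Ppp1r1b for Gap43 (0.36, and 0.38), Cspg4 for Gfra2 (0.74, and 0.63), Pigv for Camk2b (0.37, and 0.11) and Cntfr for Gria2 (0.47, and 0.16). The nearest gene to Snap25, Rarres2 at 0.20 over 104 cells, is too weak to be read in sparse counts.

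Other neuronal genes did not follow the members as a group. Of 62 listed, the larger set measured 8. The synaptic vesicle gene Syt1, the glutamate receptor gene Gria3 and the receptor gene Gfra1 were at 0 in all 4 libraries, and Syt1 was also at 0 in the smaller set. Vamp2, the vesicle partner of Snap25 in fusion, was in 49.9% of cells of the panel 1 library and in 0%, 100% and 100% of captures 1, 2 and 3. It was thus at 0 in the panel 2 library where Stmn2, Gap43 and Gfra2 were highest. Camk2n1, an inhibitor of the kinase that Camk2b belongs to, was in 21.5% of cells of the panel 1 library and in 100%, 83.7% and 100% of captures 1, 2 and 3. Grina, which encodes a membrane protein named for glutamate receptor association, was in 63.6% of cells of the panel 1 library and 100% of each panel 2 library. Vamp1 was in 1.47% of cells of the panel 1 library and 15.9%, 14.0% and 64.4% of panel 2, and Calb2 in 1.89%, against 52.3%, 0% and 6.90%. The level of Camk2n1 was 54.8, 1.56 and 12.4 per 1000 in captures 1, 2 and 3, and that of Calb2 was 5.17, 0 and 0.0788. Both were thus highest in capture 1, as Stmn2, Gap43 and Gfra2 were, while Vamp1, Vamp2 and Grina were not. In the smaller set Pvalb, a calcium-binding protein of fast-spiking neurons, was in 100% of the replicate 2 cells and 2.88% of the replicate 3 cells, the reverse order of Snap25.

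Transmitter genes were counted beside the members. Capture 1, where 100% of cells held a member, had 0 UMIs of all 6 measured: the glutamate transporters Slc17a7 and Slc17a8, the GABA-making enzymes Gad1 and Gad2, and the enzymes Th and Hdc of dopamine and histamine synthesis. In the panel 1 library, 5 of the 6 were detected, with Slc17a8 in 11.7%, Hdc in 11.8%, Gad1 in 7.58%, Gad2 in 2.53% and Th in 0.737% of cells, and Slc17a7 was at 0. The limit of 3 counts in capture 1 was 0.263 UMIs per 1000. That is above the panel 1 library's level of Th (0.0662) and close to its level of Gad2 (0.265). For Th, Gad2 and Slc17a7 a difference between these 2 libraries was thus not detectable. Capture 2 held Hdc in 69.8% and Th in 48.8% of cells, and capture 3 held Gad2 in 78.2%, but cells there were deeper. By level Hdc was lower in capture 2 than in the panel 1 library, at 0.515 against 1.43 UMIs per 1000. Th was higher in capture 2, at 0.415 against 0.0662, and Gad2 in capture 3, at 1.49 against 0.265. Thinned, the shares were 2.17% against 4.78% for Hdc, 1.57% against 0.389% for Th and 4.85% against 1.03% for Gad2. Per 1000 UMIs of the panel 1 library, transmitter UMIs stood at 4.21 both in cells with Stmn2 and in cells without it, and for Gap43 at 4.56 with and 4.04 without. They were at 6.74 in cells with Eno2 and 3.82 in cells without, and at 7.0 in cells with Gria2 and 3.98 in cells without. The other 3 genes went the other way, with 2.87 in cells with Camk2b and 4.28 in cells without, 3.34 and 4.26 for Tubb3, and 4.06 and 4.57 for Gfra2. Only 15 cells held Camk2b and 25 held Tubb3. For Eno2, Camk2b and Gfra2 the direction turned in panel 2. Transmitter UMIs stood at 0.883 with Eno2 and 1.17 without in capture 2, and in capture 3 at 1.63 and 1.25 for Camk2b and 1.83 and 1.15 for Gfra2. Gria2 (1.71 and 1.12) and Gap43 (1.56 and 1.35) kept theirs in capture 3. In the smaller set the glutamate transporter gene Slc17a6 was absent from the counts of replicate 2 and in 23.1% of cells of replicate 3, and the GABA transporter gene Slc32a1 was at 0 in both. Among cells of replicate 3, 20.0% with Snap25 and 33.3% without it held a UMI of Slc17a6.

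Members were also set against the reporter in the panel 1 library, where cells with and without it were both common. The 281 cells with a tdTomato UMI had a median depth of 131 UMIs, against 41 in the 669 cells without one, and shares of cells were higher with it for all 7 genes. Stmn2 was in 17.1% of cells with the reporter and 6.43% of cells without it, yet its level was 1.04 and 1.14 UMIs per 1000. Gap43 stood at 1.01 per 1000 with the reporter and 1.23 without, and Gfra2 at 7.08 and 7.0. The rarer genes rested on few UMIs, with 16 and 6 of Camk2b and 14 and 18 of Gria2 in cells with and without the reporter. With 1 library there is no test of these differences.

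Markers of other cell types were in the same cells. Fcer1g, the only measured gene of the microglia and macrophage list in the larger set, was in 73.7% of cells of the panel 1 library and 100% of cells of each panel 2 library. The oligodendrocyte gene Bcas1 was in 96.4% of cells of the panel 1 library and 100% of each panel 2 library. In capture 1 the oligodendrocyte genes Ermn and Ugt8a were at 0, as were all 3 tanycyte and all 3 fibroblast genes. The same cells held the astrocyte gene Gja1, the precursor gene Cspg4 and Rarres2 of the ependymal list in 97.7% each, and the mural gene Acta2 in 100%. The other measured gene of each of these lists was at 0 there, namely Gfap, Fyn, Tmem212 and Mustn1. The endothelial list, of 3 measured genes, stood at 85.2 UMIs per 1000 in the panel 1 library and at 1.58, 9.82 and 7.58 per 1000 in panel 2. In the panel 1 library the astrocyte list (2 measured) stood at 29.5 per 1000 in cells with Stmn2 and 17.1 in cells without, and the values for Gap43 were 26.8 and 17.7. They were 21.9 and 17.2 for Gfra2, 22.3 and 20.5 for Tubb3, and 22.6 and 20.4 for Gria2. For Eno2 they were 20.5 and 20.6, and for Camk2b 15.5 and 20.8, the other way. The endothelial list there was higher with Stmn2 (97.8 and 80.2), Gap43 (98.1 and 79.1), Gfra2 (91.1 and 70.4) and Eno2 (111 and 81.2). It was also higher with Camk2b (187 and 79.9) and Gria2 (133 and 81.4), but lower with Tubb3 (69.1 and 86.1). The precursor list was lower with Stmn2 (32.4 and 49.0), Gap43 (33.2 and 49.6), Gfra2 (41.4 and 51.5) and Eno2 (40.1 and 45.0). It was also lower with Camk2b (32.8 and 44.9) and Gria2 (31.8 and 45.3), but higher with Tubb3 (49.9 and 44.0). The part of these other cell types in the member values was not tested.

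The panel 1 library was compared with the 3 panel 2 libraries over all genes of the larger set, which asks whether the members differ between the labels. With edgeR's quasi-likelihood test and Benjamini-Hochberg adjustment, 2 of 157 genes were called (1.27%), at an adjusted p under 0.05, and 4 had an unadjusted p under 0.05. None of the 7 members was called, and none had an unadjusted p under 0.05 by edgeR or by DESeq2. With 1 library against 3 and standard errors from 3.61 to 5.75 on the log2 scale, this says nothing on whether the members differ between the labels. These errors were derived from the test, as the size of the change divided by the square root of its F statistic. The adjusted p was 0.631 for Tubb3 and 0.999 for the other 6. The log2 fold change of the panel 1 library over panel 2 was -0.88 ± 5.66 (SE) for Stmn2, from levels of 1.08 and a mean of 5.19 per 1000. For Gap43 it was -1.22 ± 5.59 and for Gfra2 0.40 ± 3.61, and the errors exceeded the changes for each of these genes. The common dispersion of 4.23 stands for a spread among the panel 2 libraries of several fold. Pipeline version and the label of the panel 1 library cannot be told apart, since that table alone was made with version 1.3 and the others with 1.5. The median log2 fold change over the 7 members was 0.40, beside 0.54 over all genes tested, and with library totals in place of TMM these were -0.96 over the members and -0.06 over all genes. Of the other neuronal genes 5 were tested and of the transmitter genes 5, and none of these was called in either direction.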

How the data were processed

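The authors deposited raw UMI counts for every cell and amplicon. Per the file headers, Rhapsody's own pipeline produced them, in version 1.3 for panel 1 of replicate 1 and in 1.5 otherwise. Per the submitters' processing notes, mm9 was the reference. How reads were aligned and cells called is not given in the sources used here.

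Amplicons were summed by symbol. The larger set (290 amplicons) and smaller set (80 amplicons) were separated by which columns held counts. The panel 2 table of replicate 3 has 1 further amplicon, left out of all totals. In the larger set, mean profiles of libraries matched by name after column 147 (r from 0.463 to 0.775 over amplicons, and at most 0.133 with columns moved by 1). A total of 21 barcodes that stood in tables of 2 replicates were left out. Libraries shared no cell index, apart from 2 between the sets of replicate 3. Depth was 105772 UMIs in panel 1 of replicate 1, 11423, 79560 and 101574 in panel 2, and 25964 and 76898 in the smaller set. No doublets were called. Where nothing says that captures came from separate days or litters, their spread may be partly technical.

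Cells were not treated as replicates. Shares carry exact 95% intervals, and a count of 0 the limit of 3 counts. Thinning to 35 UMIs was computed as an expectation, without drawing. Summed counts were tested with edgeR 4.0.16 (TMM, filterByExpr), and DESeq2 1.42.0 in R 4.3.3 as an alternative. With 1 library against 3, the lone library is taken to vary like the others. On simulated data for this comparison, 20 of 20 genes changed by 4 on the log2 scale, with a dispersion far below that measured here, were called among 151 genes, and 0 others. Python 3.11.15 gave the other values (scipy 1.17.1, numpy 2.4.6, pandas 2.3.3) and the plots (matplotlib 3.10.9). Promoters are from RefSeq, GRCm38.p6.

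The genes named are all members, the nearest genes of each by Pearson r among genes in at least 10 cells, transmitter genes, and listed genes at 0 throughout or in at least 50% of cells of a library. The top cells and their leading genes were chosen after their values were seen. Members, lists and tests were chosen with earlier results of these data known. Values of some listed genes, and summed levels of the oligodendrocyte list, are not reported here.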

Additional observations from a re-analysis of the deposited data

Results flagged for a closer look

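A signal of 4 of the genes appeared in data outside the comparisons, in 21 barcodes that stood with identical counts in the tables of 2 replicates (panel 2 of replicate 2 and panel 1 of replicate 3). Their counts after column 147 matched the other libraries when moved by 1 column (r from 0.394 to 0.525, against 0.0116 to 0.0658 as deposited), so members were read both ways. Moved, Gria2 had 424 UMIs in 20 of 21 barcodes, Stmn2 had 202 UMIs in 18 (85.7%, 63.7 to 97.0), Gap43 had 123 UMIs in 13 and Tubb3 had 115 UMIs in 14. As deposited, Stmn2 had 135 UMIs, Tubb3 had 0, and Gria2 and Gap43 had the same values. All of these but Tubb3 as deposited are above the limit of 3 counts.

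The signal was not even over the 21 barcodes. One barcode of 16507 UMIs held 371 of the Gria2 UMIs, 165 of Stmn2, 104 of Gap43 and 93 of Tubb3. Without it, 53, 37, 19 and 22 UMIs were left. The median depth was 143 UMIs, and 17 of the 21 barcodes held at least 3 of the 7 genes (mean 3.14 ± 1.15, SD over barcodes). Gad1 was in 17 and Gad2 in 13 of them, and the glial genes Bcas1 and Fcer1g were in 20 each. Gfra2 and Camk2b were at 0, and Eno2 had 1 UMI. The first amplicon of Gria2, at 0 in all 4 libraries, had 155 UMIs here. Which replicate these barcodes belong to was not tested.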

How the results depend on the processing

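The 12 pairs of a gene and a library with 0 UMIs cannot rise with a stricter rule, and only the 21 left-out barcodes could change them. The other 18 of 30 shares all fell by more than counting error when thinned, and 17 of them fell with at least 2 UMIs. Both rules lower the chance that a cell counts as holding a gene. The stricter threshold moved 7 shares, having no threshold moved 5, and leaving out the deepest cells moved 2. With the 21 barcodes added to panel 2 of replicate 2, Stmn2 was in 26.6% of cells as deposited and 28.1% moved by 1 column, Gria2 in 31.3% and Gap43 in 20.3% both ways, and Tubb3 in 0% and 21.9%. The moved reading was chosen after seeing the data. The mean share of Stmn2 over panel 2 ranged from 0% to 47.7% without 1 capture, and that of Snap25 from 12.0% to 76.9%. Thinned, they were 19.4% and 4.11%.

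Genes called between panel 1 of replicate 1 and panel 2 numbered 6 by DESeq2 (2 higher, 4 lower), against 2 by edgeR (both higher), and from 0 to 9 without 1 panel 2 library (9 without replicate 1, 0 without replicate 2, 1 without replicate 3). Library totals in place of TMM gave 1 higher and 1 lower. No member was called in any. The log2 fold change of Gfra2 turned to -0.96 with library totals and -1.21 by DESeq2, and that of Gria2 to -0.12 by DESeq2. Without 1 panel 2 library, it ranged from -0.58 to 4.92 for Gfra2, -1.91 to 10.27 for Stmn2, -2.15 to 2.33 for Gap43 and -1.22 to 2.69 for Camk2b. The cause was not tested. No paired analysis was possible because the larger set has both labels in 1 capture only. Depth limits what panel 2 of replicate 1 can show at 0.263 UMIs per 1000.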
